A study of Rattus norvegicus with 12 samples.

Results

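The spinal cord of young male Wistar rats was compared between animals given acrylamide and animals given saline. The comparison was defined by the tissue and treatment labels and took in 4 of the 12 arrays of the study, with 2 saline and 2 acrylamide arrays. Rats 25 days old (3 weeks in the series text) received acrylamide at 30 mg/kg or saline, which another label calls solvent, by oral gavage each day, and the series text gives 21 days of dosing. Each array carried RNA pooled from 2 rats, which means that a p-value here sets a difference against variation among pools, with variation among single animals unseen. The series text places the harvest directly after those 21 days, and a sample label places collection 21 days after treatment, so whether tissue was taken at the end of dosing or 3 weeks later cannot be told from them. The cord segment was not given in the sources used here. The arrays were 1-colour Affymetrix rat arrays read as a signal in arbitrary units for each probe set, a group of probes for 1 transcript. A probe set was tested where its mean signal over the 4 cord arrays was above 110, which left 19062 probe sets, and 10654 genes were covered when 1 probe set was kept per gene.

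Acrylamide is a small electrophile that binds thiol groups of proteins and of glutathione. Part of it is oxidised to the epoxide glycidamide, and repeated dosing is known to cause a neuropathy that begins at nerve endings and in the far parts of long axons. The cord contains motor neuron cell bodies and the central branches of sensory neurons, together with oligodendrocytes, astrocytes and microglia. The roots attached to it are myelinated by Schwann cells and wrapped in collagen-rich connective tissue.

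The cord arrays matched their tissue label. Chat, the enzyme that makes acetylcholine, was at 485 to 586 on the 4 arrays against saline means of 14.1 in the cerebellum and 19.4 in the sciatic nerve. Mog, a protein of central myelin, was at 6203 to 7004, and Pcp2, a Purkinje cell gene, was at 54.2 to 89.6 against 13296 in the saline cerebellum. Median signals were 190.4 to 199, and the correlation between any 2 cord arrays was 0.9792 to 0.9845 over log2 signals. The number of arrays limits the precision, and log2 differences had a median standard error of 0.16. In bulk tissue, fewer cells of a type and less RNA per cell cannot be told apart.

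Saline replicate 1 stood apart in skeletal muscle transcripts. Acta1, the actin of skeletal muscle, had signals of 13974 on saline replicate 1, 375 on saline replicate 2, and 209 and 212 on acrylamide replicates 1 and 2. The summed signal of the 24 muscle genes on the array, tested or not, was 75638 on saline replicate 1 and 10103 to 10357 on the other 3 arrays. Of the 21 genes more than 8 times brighter on saline replicate 1 than on any other cord array, 12 were on the muscle list, and the same count was 0 for each of the other arrays. Myl11, a light chain of fast muscle myosin outside the list, had signals of 6475 and 84.8 on the saline arrays and 5.85 and 8.11 on the acrylamide arrays. Ttn, the giant sarcomere protein titin, was at 1385 and 74.6 in saline and at 8.63 and 8.91 in acrylamide. Both stayed lower in acrylamide than on saline replicate 2, which itself carried more muscle signal for these genes than the acrylamide arrays.

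Over the muscle list, 18 of 18 genes tested were lower in acrylamide with a median log2 difference of -2.03. Without saline replicate 1 the count was 12 of 18 and the median -0.086. Myl1, with signals of 9187 and 181 against 69.8 and 32.2, and Myh4, at 5301 and 43.3 against 16.1 and 4.19, had wide gaps. Several muscle genes, Myh4 and Tnnt3 among them, passed the signal filter only through saline replicate 1, so the count over the list is a description of that array. Tnni2 (3487 and 191 against 83.5 and 52.2) and Tnnt3 (3307 and 73.1 against 19.2 and 36.4), subunits of fast muscle troponin, showed the same order. Myh1 was bright on all 4 arrays (3970 to 5219) and in the saline cerebellum (3447), so its probe set did not separate the muscle-bearing array.

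**Figure D1:**
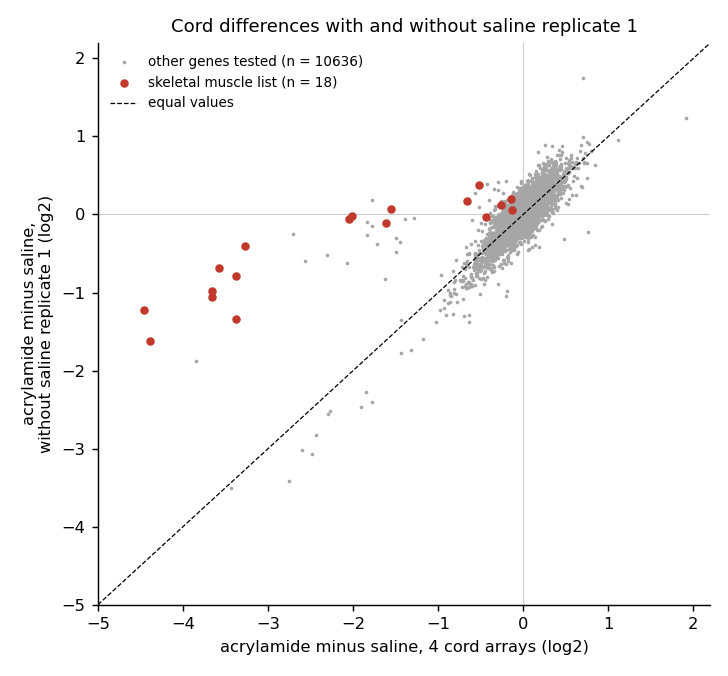
Log2 difference (acrylamide minus saline) of 10654 genes in the spinal cord, with all 4 arrays on the x axis and without saline replicate 1 on the y axis; red points are the 18 skeletal muscle genes and the dashed line marks equal values. Myl11, at -5.14 over the 4 arrays, lies beyond the left edge and is not seen. Most muscle genes lie far to the left of the dashed line, with a median of -2.03 that became -0.086, while Myh1 (-0.13 and 0.056) and most other genes lie near it.

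No gene passed the test in the cord. With limma and Benjamini-Hochberg adjustment over 19062 probe sets, 0 were called at an adjusted p below 0.05 (a percent called of 0), and 552, or 2.9%, had an unadjusted p below 0.05. These were 197 higher (1.03%) and 355 lower (1.86%) with acrylamide. The smallest adjusted p was 0.674, for Entpd5, and all others were at least 0.68085, so the genes below are described by their values and by whether the saline and acrylamide arrays were separated, with no overlap between the 2 groups. Such a separation was met upward by 18.8% and downward by 14.8% of the 10654 genes. Counts of separated genes in the lists below are to be read against these shares. An exact permutation test on 2 against 2 arrays cannot go below p = 0.333. Over all genes 5689 of 10654 (53.4%) were higher and 4965 (46.6%) lower, with a median log2 difference of 0.010, and 0.005 without saline replicate 1. In a fit of the 4 cord arrays alone 1026 probe sets (5.38%) had an unadjusted p below 0.05, and the smallest adjusted p of limma was 0.132.

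The 12 higher and 12 lower genes with the smallest p among those with separated arrays are given first. Entpd5, a nucleotidase of the endoplasmic reticulum that supports glycoprotein folding, had signals of 911 and 958 in saline and 1539 and 1430 in acrylamide. Both acrylamide arrays were higher, the log2 difference was 0.66 ± 0.088 (standard error), and all 3 of its probe sets pointed the same way. Asph, whose products hydroxylate secreted proteins or bind calcium in the endoplasmic reticulum, was at 923 and 964 against 1322 and 1318, a difference of 0.48 ± 0.086. Its other probe sets, which can read different transcripts, were lower at -0.046 and -0.20.

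Tmem176b, a membrane protein of phagocytic and antigen-presenting cells, had signals of 2925 and 3086 in saline and 4336 and 4175 in acrylamide (0.50 ± 0.094). Dhrs4, a carbonyl reductase that uses NADPH, was at 303 and 251 against 493 and 473 (0.77 ± 0.16). Gstt3, a theta-class glutathione transferase, was at 1869 and 2016 against 2457 and 2729 (0.41 ± 0.10). For these genes both acrylamide arrays exceeded both saline arrays by more than the gap between replicates. Me1, the cytosolic malic enzyme that supplies NADPH, was at 2594 and 2660 against 3083 and 3236, a difference of 0.26 ± 0.067 with tight replicates.

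Npc2, the lysosomal carrier of cholesterol, had signals of 5716 and 5896 in saline and 7164 and 6886 in acrylamide (0.27 ± 0.060). Borcs7, a subunit of the complex that moves lysosomes along axons, was at 1167 and 1230 against 1679 and 1551 (0.42 ± 0.11), with 3 of its 4 probe sets higher. Its brightest probe set, at 2622 and 2752 against 3006 and 2634, showed 0.067 ± 0.12 with overlapping groups. Sirpa, the receptor for the "do not eat me" ligand CD47 on phagocytes and neurons, was at 1584 and 1621 against 2043 and 1983 (0.33 ± 0.076). Replicates of each of these genes lay close together in both groups. Tmod3, which caps actin filaments, was at 374 and 404 against 570 and 543 (0.50 ± 0.11). Grk6, a kinase of activated G protein-coupled receptors, was at 300 and 256 against 406 and 412, a difference of 0.54 ± 0.12 that its brighter probe set did not show (-0.001 ± 0.13). Nr1d1, a clock repressor, completed the 12 and is described with the clock genes.

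Among the 12 lower genes, Pmp2, a lipid-binding protein of peripheral myelin, had signals of 4646 and 5213 in saline and 2674 and 2645 in acrylamide, a difference of -0.88 ± 0.16. Pmp22, a membrane protein of the same myelin, was at 13529 and 14813 against 10580 and 10526 on 1 probe set (-0.42 ± 0.078) and at 22637 and 21680 against 19937 and 20801 on a brighter one (-0.12 ± 0.10). Both probe sets had each acrylamide array below each saline array. Serpinh1, the chaperone of collagen folding, was at 1999 and 2148 against 1533 and 1558 (-0.42 ± 0.10). Fbln2, a glycoprotein of the matrix, was at 1080 and 1174 against 863 and 746 (-0.48 ± 0.11). Kdelr3, a receptor that returns escaped proteins to the endoplasmic reticulum, was at 621 and 712 against 406 and 373 (-0.75 ± 0.14). These genes shared a higher signal in the saline sciatic nerve than in the cord, as did 10 of the 12 lower genes and 6 of the 12 higher genes.

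Hspa1a, the inducible heat shock protein of the HSP70 family, had signals of 619 and 562 in saline and 411 and 373 in acrylamide (-0.57 ± 0.13), on a probe set that may also bind its near-identical copy. Dmpk, the kinase whose repeat expansion causes myotonic dystrophy, was at 1405 and 1342 against 1023 and 944 (-0.48 ± 0.10). Lyar, a nucleolar zinc finger protein, was at 470 and 433 against 326 and 275 (-0.57 ± 0.13). In each the acrylamide arrays lay below both saline arrays, and the gap between groups was wider than the gap between replicates. Abcd4, a lysosomal transporter for vitamin B12, was at 246 and 276 against 158 and 181 (-0.58 ± 0.12). Erc1, a scaffold of the presynaptic release site, was at 380 and 317 against 240 and 220 (-0.56 ± 0.13). Its brighter probe set, at 425 and 413 against 369 and 408, showed a smaller difference of -0.11 ± 0.10. Syndig1l, a transmembrane protein related to a partner of AMPA receptors, was at 370 and 275 against 174 and 181 (-0.79 ± 0.18).

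**Figure D2:**
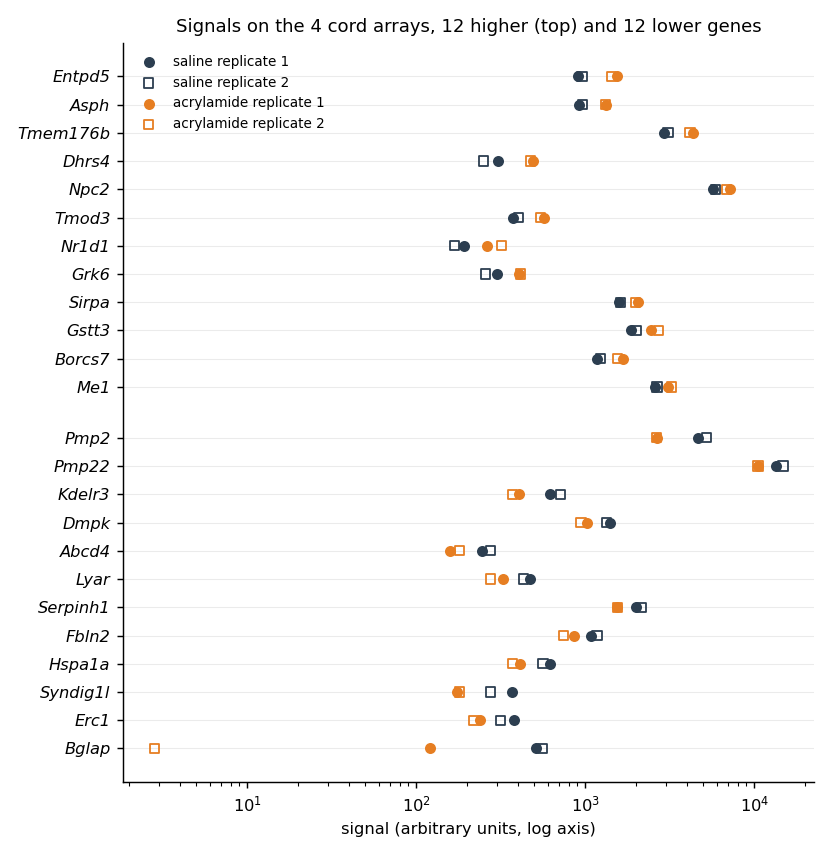
Signals (arbitrary units, log axis) of the 12 higher genes (upper block) and 12 lower genes (lower block) on the 4 cord arrays; dark symbols are saline and orange symbols acrylamide, filled circles replicate 1 and open squares replicate 2. The orange symbols lie to the right of both dark symbols in the upper block and to the left in the lower block, by the rule that chose the genes, and Bglap is spread from 2.83 to 121 within acrylamide.

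Genes of neurons and axons lay close to no difference. The neurofilament subunits, which fill long axons and set their calibre, were described first: Nefl was at 14630 and 13842 in saline and 13872 and 13988 in acrylamide. Nefm was at 22940 and 21993 against 21201 and 22740, and Nefh at 15984 and 15209 against 14685 and 15471. The groups overlapped for Nefl and Nefm and for Nefh. The standard errors of these differences were 0.42, 0.43 and 0.67 with the spread shared over all 12 arrays, to which the nerve replicates contributed, and 0.056, 0.058 and 0.058 in a fit of the cord arrays alone. In that fit the 95% confidence intervals were -0.16 to 0.10 for Nefl, -0.17 to 0.10 for Nefm and -0.19 to 0.088 for Nefh. Over 25 genes of the axonal cytoskeleton 16 were higher and 9 lower with a median of 0.016 (0.028 without saline replicate 1), against 0.010 over all genes. All 5 filament genes were lower (median -0.049) and 10 of 11 genes of tubulin partners were higher (median 0.052). Without saline replicate 1 the filament genes were lower in 4 of 5 cases with a median of -0.013, and the median of the tubulin partners was 0.12. Tubb2b, a beta-tubulin of growing neurons, was at 3807 and 4057 against 4305 and 4851 (0.22 ± 0.095).

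Motors of axonal transport showed 10 of 20 genes higher and a median of 0.008. Kif5a, the neuronal kinesin heavy chain, was at 3711 and 3557 in saline and 3672 and 3676 in acrylamide. Dync1h1, the heavy chain of dynein, was at 4327 and 4774 against 4621 and 4716. The groups overlapped for both motors. Genes of axon injury and regrowth were divided 9 to 9 with a median of -0.002, and 5 of 14 genes of axon degeneration were higher, with a median of -0.013. Without saline replicate 1 the first median was 0.052, and 9 of the 14 degeneration genes were higher with a median of 0.010. Stat3, a factor activated by axon injury, was at 1417 and 1508 against 1714 and 1623, a difference of 0.19 ± 0.11 with separated arrays.

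Cholinergic genes did not separate the groups. Chat was at 533 and 586 in saline and 485 and 552 in acrylamide, and Slc5a7, the choline transporter of cholinergic terminals, at 1671 and 1587 against 1641 and 1735. Slc18a3, which loads acetylcholine into vesicles, was at 786 and 752 against 692 and 873. Of 10 genes of motor and cholinergic neurons 4 were higher, 0 had separated arrays upward and 2 downward. Among 17 interneuron and dorsal horn genes 7 were higher with a median of -0.024, and without saline replicate 1 the count was 12 and the median 0.020. Gal, the peptide galanin, led them by p, at 666 and 661 against 465 and 496 (-0.45 ± 0.14). Slc17a6, the glutamate transporter of excitatory neurons, was at 3708 and 3448 against 3623 and 3597, without separation.

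Genes expressed in sensory neurons were split, 3 higher and 3 lower of 6. Avil, an actin-binding protein of sensory neurons, was at 150 and 133 in saline and 92.1 and 87.4 in acrylamide (-0.57 ± 0.16). Ret, the receptor of the GDNF family, was at 1012 and 973 against 1327 and 1375 (0.44 ± 0.22), and all 3 of its probe sets were higher. Both genes had acrylamide arrays outside the saline range. Avil passed the signal filter only through its saline arrays. Of 21 synaptic vesicle and SNARE genes 15 were lower with a median of -0.036, and this median was 0.005 without saline replicate 1. Syt11, a synaptotagmin, was at 1102 and 820 against 658 and 781 (-0.40 ± 0.17), and Cplx2, a complexin that clamps vesicle fusion, at 211 and 232 against 166 and 154 (-0.43 ± 0.40).

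Microglial genes were mostly higher. Of 18 markers of microglia and macrophages 14 were higher, with a median of 0.24, against 0.010 over all genes. Separated upward were 10, against 18.8% of all genes, and 0 were separated downward. P2ry12, the purine receptor of resident microglia, had signals of 770 and 636 in saline and 1016 and 886 in acrylamide (0.43 ± 0.19). Aif1, the calcium-binding protein IBA1, was at 497 and 494 against 787 and 657 (0.52 ± 0.39). Fcgr2b, an inhibitory antibody receptor, was at 315 and 391 against 505 and 513 (0.52 ± 0.26). Each of these genes had both acrylamide arrays above both saline arrays. Cx3cr1, the fractalkine receptor, was at 330 and 261 against 349 and 336 (0.21 ± 0.17). The markers Tmem119, at 191 and 196 against 188 and 226, and Cd68, at 166 and 214 against 216 and 152, had overlapping groups. The median of the list was 0.15 without saline replicate 1 and 0.14 without acrylamide replicate 1. An unadjusted p below 0.05 was found for 1 of its 18 genes, a higher one, against 1.15% of all genes in that direction.

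Complement and antigen presentation genes lay on the same side. C1qa, a chain of the first complement component made by microglia, was at 1400 and 1526 in saline and 2349 and 2481 in acrylamide, a difference of 0.72. Its standard error was 0.45 with the spread over all 12 arrays and 0.082 in the cord alone, where the adjusted p of limma was 0.136. C3, the central complement protein, was at 1745 and 2190 against 2792 and 3095 (0.58 ± 0.33). Cd74, the invariant chain of MHC class II, was at 1191 and 1204 against 1625 and 1767 (0.50 ± 0.33). RT1-Da, a class II alpha chain, was at 582 and 530 against 896 and 761 (0.56 ± 0.54), and RT1-Ba at 334 and 264 against 463 and 429 (0.56 ± 0.45). All of these had separated arrays on the probe sets given, but a dimmer RT1-Ba probe set was at 238 and 120 against 38.9 and 205 (-0.76 ± 0.79), with overlapping groups. Over the lists 8 of 12 complement and cytokine genes and 7 of 8 class II genes were higher, with medians of 0.21 and 0.34. Without saline replicate 1 these medians were 0.086 and 0.41.

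Interferon-induced genes were higher in 25 of 31 cases, with a median of 0.15. Separated upward were 14, where the share over all genes was 18.8%, and 2 were separated downward. Oas1a, a sensor of double-stranded RNA, was at 55.5 and 73.1 in saline and 148 and 166 in acrylamide, a difference of 1.12 ± 0.29 that rests on dim saline signals below the filter level of 110. It was tested only because its acrylamide signals raised the mean over 4 arrays above that level. Mx2, an antiviral GTPase, was at 446 and 506 against 828 and 792 (0.75 ± 0.31). Gbp2, a guanylate-binding protein, was at 408 and 437 against 610 and 489 (0.36 ± 0.12), and Ifit3 at 92 and 113 against 141 and 150 (0.45 ± 0.21). These 4 genes had separated arrays. Of the 31 genes 3 had an unadjusted p below 0.05, all higher, against 1.15% of all genes in that direction. Oas1a, which had to differ to be tested, was among them. Ifit3 likewise had a saline mean below the filter level. The antiviral genes had a median of 0.22 and those of antigen processing 0.027. The median of the list was 0.087 without acrylamide replicate 2.

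The Oas1a promoter is shown because it holds overlapping copies of the interferon-stimulated response element, searched as GAAA, any 2 bases and GAAA. It is RefSeq sequence of assembly GRCr8, from 250 bases before to 50 bases after the gene's first base, 5′ to 3′ on the gene's strand, with the motif in capitals.
Oas1a (chr12:41330216-41330515, plus strand): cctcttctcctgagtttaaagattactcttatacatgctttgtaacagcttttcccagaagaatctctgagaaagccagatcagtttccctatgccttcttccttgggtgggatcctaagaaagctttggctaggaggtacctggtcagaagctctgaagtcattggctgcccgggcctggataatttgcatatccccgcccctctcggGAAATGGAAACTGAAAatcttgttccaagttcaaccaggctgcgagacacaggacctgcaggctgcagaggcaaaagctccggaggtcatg
The 2 matches begin 41 and 35 bases before the gene start and overlap each other. On either strand the motif was present in 3.92% of all 33469 promoters of this length and in 19 of the 25 interferon-induced genes tested that had a promoter in the table. A match is a description of letters and not of a bound site.

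Astrocyte genes were higher in 12 of 17 cases with a median of 0.11, and 0.060 without saline replicate 1. Separated upward were 7, against 18.8% of all genes. Gfap, the intermediate filament of astrocytes, was at 15071 and 14796 in saline and 16358 and 17468 in acrylamide (0.18 ± 0.14). Aqp4, the water channel of astrocyte endfeet, was at 13804 and 13103 against 16038 and 15138, a difference of 0.21. Its standard error was 1.38 with the spread over all 12 arrays and 0.059 in the cord alone. Dimmer Aqp4 probe sets, at 0.072 ± 0.82 and 0.18 ± 0.86, had overlapping groups. Aldh1l1, a folate enzyme of astrocytes, was at 1218 and 1211 against 1423 and 1470. Gfap, Aldh1l1 and the brightest Aqp4 probe set were separated upward. Vim, a filament also abundant in the nerve (27065 in saline), was lower on acrylamide replicate 2 at 6115, with 8223 and 9141 in saline and 8233 on acrylamide replicate 1. Genes of reactive astrocytes were divided 3 to 3. Oligodendrocyte genes were near the centre, with 10 of 18 higher and a median of 0.031, and 9 of 18 and 0.010 without saline replicate 1. Mobp was at 21826 and 22559 against 21039 and 22623, with overlapping groups. Mag, a myelin-associated adhesion protein, was at 8185 and 7919 against 8707 and 9956 (0.21 ± 0.15), and Fa2h, which makes the hydroxylated lipids of myelin, at 4284 and 4667 against 3520 and 3604 (-0.33 ± 0.17).

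**Figure D3:**
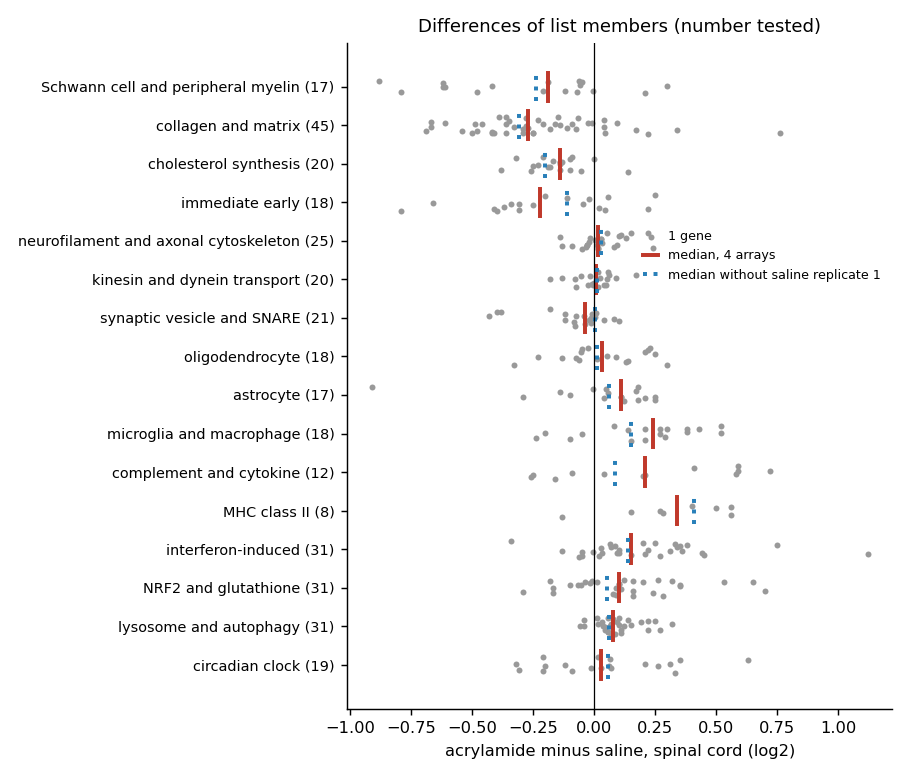
Log2 differences (acrylamide minus saline) of the tested members of 16 gene lists in the spinal cord; each grey point is 1 gene, the red bar is the list median over the 4 arrays and the dotted blue bar the median without saline replicate 1. Medians run from -0.27 for collagen and matrix to 0.34 for MHC class II, and those of the axonal cytoskeleton and transport lists lie at 0.016 and 0.008.

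Genes of glutathione use and NADPH supply were more often higher. Acrylamide is conjugated to glutathione, and the factor NRF2, freed when reactive thiols of its inhibitor KEAP1 are modified, drives many of these enzymes through the antioxidant response element. Of 31 such genes 21 were higher, with a median of 0.10, 15 separated upward and 1 downward. Unadjusted p lay below 0.05 for 6, all higher, against 1.15% of all genes in that direction. The 7 genes of NADPH supply and reduction were all higher (median 0.16), the 12 transferases were 7 to 5, and the 2 regulators, Nfe2l2 and Keap1, lay at -0.009 and -0.10.

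Gstp1, the pi-class transferase, had signals of 6516 and 6221 in saline and 7905 and 8356 in acrylamide (0.35 ± 0.10). Gsta1, of the alpha class, was at 3827 and 3792 against 4877 and 6199 (0.53 ± 0.18), and Gstm1, of the mu class, at 2284 and 2168 against 2652 and 2902 (0.32 ± 0.12). Nqo1, a quinone reductase, was at 1440 and 1542 against 1875 and 2925 (0.65 ± 0.25), so acrylamide replicate 2 was far above replicate 1. Mgst1, a membrane-bound transferase, was at 2351 and 2290 against 3604 and 3987, a difference of 0.70. Its standard error was 0.44 with the spread over all 12 arrays and 0.077 in the cord alone, where the 95% confidence interval was 0.52 to 0.88 and the adjusted p of limma 0.136. All of these genes had separated arrays. Srxn1, which repairs oxidised peroxiredoxins, was at 526 and 482 against 569 and 729 (0.35 ± 0.15), while Gclm, a subunit of the enzyme that starts glutathione synthesis, was at 623 and 565 against 598 and 575. The median of the list was 0.052 without saline replicate 1, and probe sets of transferases can bind related family members.

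The promoters of Gstp1, Me1 and Gsta1 are shown because these 3 of the 6 higher genes held the core motif TGACNNNGC of the antioxidant response element, in capitals, within the same RefSeq GRCr8 window.
Gstp1 (chr1:210769656-210769955, minus strand): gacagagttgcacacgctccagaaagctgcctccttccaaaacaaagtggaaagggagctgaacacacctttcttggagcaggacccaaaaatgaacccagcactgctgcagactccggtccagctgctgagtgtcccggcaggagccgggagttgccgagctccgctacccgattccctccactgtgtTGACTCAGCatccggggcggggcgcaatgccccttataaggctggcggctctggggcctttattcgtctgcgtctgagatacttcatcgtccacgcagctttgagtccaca
Me1 (chr8:96540195-96540494, minus strand): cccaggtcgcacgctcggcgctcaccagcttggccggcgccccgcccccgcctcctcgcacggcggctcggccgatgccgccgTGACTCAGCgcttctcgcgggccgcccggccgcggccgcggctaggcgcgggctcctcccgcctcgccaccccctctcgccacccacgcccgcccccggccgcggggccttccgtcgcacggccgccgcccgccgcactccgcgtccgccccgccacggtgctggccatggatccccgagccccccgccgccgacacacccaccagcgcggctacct
Gsta1 (chr9:31216483-31216782, minus strand): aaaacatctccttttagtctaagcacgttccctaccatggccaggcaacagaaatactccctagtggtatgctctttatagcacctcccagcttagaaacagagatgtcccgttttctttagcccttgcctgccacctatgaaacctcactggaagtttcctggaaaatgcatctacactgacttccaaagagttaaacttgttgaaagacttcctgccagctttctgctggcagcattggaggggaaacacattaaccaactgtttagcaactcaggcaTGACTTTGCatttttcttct
The motif began 61 bases before the gene start in Gstp1, 167 bases before it in Me1 and at base 31 of the gene in Gsta1. Gstp1 and Me1 shared the letters TGACTCAGC, and Gsta1 had TGACTTTGC. On either strand the motif was present in 12.1% of all 33469 promoters and in 6 of the 26 NRF2 and glutathione genes tested that had a promoter in the table. Promoters of Gstm1, Nqo1 and Srxn1 did not hold these letters in this window.

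Other defence genes lay nearer to 0. Cat, the peroxide-splitting catalase, was at 3490 and 3026 in saline and 4058 and 4183 in acrylamide (0.34 ± 0.10), and 12 of 18 peroxide and superoxide enzymes were higher with a median of 0.027. Cyp2e1, the enzyme that turns acrylamide into glycidamide, was at 60.8 to 72.2 on the cord arrays and was not tested. Ephx1 and Ephx2, epoxide hydrolases, were at 328 and 342 against 339 and 301, and at 418 and 415 against 461 and 399, with overlapping groups. Heat shock genes were lower in 11 of 17 cases with a median of -0.007, and -0.013 without saline replicate 1. Besides Hspa1a, Cryab, a small heat shock protein that is abundant in the nerve (19513 in saline), was lower, at 9176 and 10167 against 7302 and 6995 (-0.43 ± 0.11). The endoplasmic reticulum list was divided 14 to 11 with a median of 0.017, and Sdf2l1, a chaperone partner, was at 610 and 682 against 771 and 801 (0.28 ± 0.11). Ddit4, an inhibitor of the growth kinase mTOR induced by stress, was at 1611 and 1771 against 1301 and 1186 (-0.44 ± 0.12), while Atf4 and Atf5 showed differences of -0.16 ± 0.12 and 0.17 ± 0.12. Of 12 p53 and DNA damage genes 2 were higher, with a median of -0.028, and 0 had separated arrays in either direction. Without saline replicate 1 the count was 7 of 12 and the median 0.016. Proteasome genes were divided 13 to 14 with a median of -0.002, and 0.008 without saline replicate 1.

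Lysosome and autophagy genes were higher in 28 of 31 cases by small amounts, with a median of 0.079 and 13 separated upward. Without saline replicate 1 the count was 24 of 31 and the median 0.061, and without saline replicate 2 the median was 0.12. Beside Npc2, Lamp2, a protein of the lysosomal membrane, was at 5974 and 6261 in saline and 7761 and 6525 in acrylamide (0.22 ± 0.091). The cysteine proteases Ctsz (516 and 504 against 704 and 582) and Lgmn (2884 and 2918 against 3351 and 3401) were separated upward, as was Ctsb at 8185 and 8147 against 8806 and 8823. All 8 proteases were higher with a median of 0.11, and the 8 autophagy genes had a median of 0.044. Markers of microglia, which are rich in lysosomes, were higher on the same arrays (median 0.24), and their part in the lysosome values was not tested.

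Clock genes included several of the clearest separations. Nr1d1, the repressor REV-ERB alpha, had signals of 193 and 169 in saline and 262 and 319 in acrylamide (0.63 ± 0.14). Nr1d2, its partner, was at 1566 and 1480 against 2016 and 1781 (0.31 ± 0.15), Dbp, an output factor, at 674 and 657 against 826 and 882 (0.35 ± 0.10), and Bhlhe41, a further repressor, at 3658 and 3467 against 4222 and 4765 (0.33 ± 0.11). Bmal1, the activator that REV-ERB proteins repress, was at 348 and 374 against 251 and 325 (-0.32 ± 0.13). On the probe sets given, Nr1d1, Nr1d2, Dbp and Bhlhe41 were higher and Bmal1 lower on both acrylamide arrays. Dimmer Nr1d2 probe sets showed 0.23 ± 0.15 and 0.012 ± 0.30, the latter with overlapping groups at 178 and 109 against 116 and 171. Over the roles, 5 of 7 repressors were higher, while the 6 output genes had 2 higher, 3 separated downward and 1 upward, with a median of -0.16. Per3 was at 226 and 256 against 295 and 287 (0.26 ± 0.12), whereas Per1 varied within saline, at 114 and 400 against 203 and 170. Of 19 clock genes 11 were higher and 8 separated upward against 4 downward, with a median of 0.029, and 0.055 without saline replicate 1. These genes cycle over the day, and the hour of collection of each pool was not given in the sources used here.

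Immediate early genes, which respond within minutes to activity and handling, were lower in 13 of 18 cases with a median of -0.22, and -0.11 without saline replicate 1. All 7 genes of zinc finger factors and nuclear receptors were lower (median -0.37), while the 4 AP-1 genes had a median of -0.032. The lowest of the 7 was Egr2 (-0.79), which is bright in the nerve (4034 in saline) and is counted in the Schwann cell list too. Klf2, a flow-sensing factor of vessels, was at 823 and 669 in saline and 501 and 431 in acrylamide (-0.66 ± 0.23). Its dimmer probe sets were at -0.63, -0.18 and -0.052, and at -0.50, -0.014 and 0.22 without saline replicate 1. Nr4a1, an orphan nuclear receptor, was at 635 and 677 against 521 and 458 (-0.41 ± 0.25). On the probe sets with signals given, both genes had acrylamide arrays below the saline range. Glucocorticoid-induced genes were lower in 11 of 17 cases with a median of -0.080, which was -0.16 without saline replicate 1 and turned in sign without saline replicate 2.

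Cholesterol synthesis genes were lower nearly throughout, in 19 of 20 cases with a median of -0.14. Separated downward were 13 of the 20, against 14.8% of all genes, and 0 were separated upward. Along the pathway, the 8 early genes had a median of -0.22 and the 9 late ones -0.14. Mvk, which phosphorylates mevalonate, was at 1064 and 1133 in saline and 838 and 846 in acrylamide (-0.38 ± 0.15). Pmvk, the next enzyme, was at 1643 and 1704 against 1454 and 1352 (-0.25 ± 0.15), and Idi1, which makes the reactive isoprene unit, at 4822 and 4853 against 3937 and 3812 (-0.32 ± 0.12). Sqle, which oxidises squalene, was at 2957 and 3174 against 2731 and 2572 (-0.21 ± 0.12). The replicates of these 4 genes lay closer together than the groups. Sc5d was the exception in the list, at 5025 and 3113 against 4213 and 4504. Unadjusted p was below 0.05 for 2 genes, both lower, against 1.9% of all genes in that direction. The median was -0.20 without saline replicate 1. Genes of fatty acid and myelin lipid synthesis were divided 8 to 10 with a median of -0.035, and -0.063 without saline replicate 1. Fasn, the fatty acid synthase, was at 6144 and 6125 against 5557 and 5688.

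Collagen and matrix genes were lower in 37 of 45 cases, with a median of -0.27, 24 separated downward and 2 upward. Unadjusted p was below 0.05 for 13, all lower, against 1.9% of all genes in that direction. The 9 fibrillar collagen genes and the 12 basement membrane genes were all lower, with medians of -0.39 and -0.36, while small proteoglycan genes were divided 3 to 3. Col1a1 was at 4484 and 4415 in saline and 3166 and 2443 in acrylamide (-0.67 ± 0.21), and Col1a2 at 4400 and 3961 against 3113 and 2130 (-0.69 ± 0.22). Lama2, a laminin chain of the sheath around Schwann cells, was at 1323 and 1379 against 1084 and 888 (-0.46 ± 0.11), and Lamc1 at 1983 and 2232 against 1676 and 1592 (-0.36 ± 0.095). In each of these 4 genes acrylamide replicate 2 was the lowest array. Dcn, a proteoglycan of connective tissue, was at 9073 and 7915 against 7111 and 6352 (-0.33 ± 0.15). Col1a1, Col1a2 and Dcn are also on a list of fibroblast and meninges genes, which was evenly divided. Of its 14 genes tested 7 were higher and 7 lower, with a median of -0.012, and -0.083 without saline replicate 1. Separated downward were 7 of them and upward 1. Slc6a13, a marker on that list, was at 226 and 280 against 262 and 302, with overlapping groups. The list median was -0.11 without acrylamide replicate 2 and -0.31 without saline replicate 1.

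Schwann cell genes were lower in 15 of 17 cases with a median of -0.19, and 9 were separated downward, against 14.8% of all genes. By role, the 7 membrane and adhesion genes had a median of -0.42 and the 5 myelin protein genes -0.12. The 5 identity genes had a median of -0.062, with 1 separated downward. Prx, the periaxin of Schwann cell membranes, was at 5925 and 7312 in saline and 5059 and 3626 in acrylamide (-0.62 ± 0.20). Egr2, the factor that switches on peripheral myelin genes, was at 808 and 1117 against 640 and 459 (-0.79 ± 0.27). Scn7a, a sodium channel of non-myelinating Schwann cells, was at 5315 and 6750 against 4913 and 3092 (-0.62 ± 0.22), and Cntf, a factor made by Schwann cells, at 3150 and 3511 against 2859 and 2303 (-0.37 ± 0.15). Saline replicate 2 was the highest and acrylamide replicate 2 the lowest of the 4 arrays for each of these genes. The summed signal of the list was 111561 and 117335 in saline and 101285 and 106611 in acrylamide.

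In that sum acrylamide replicate 1 was below replicate 2, while a like order to the genes above appeared in the median of genes that were bright in the nerve. After the values were seen, genes were classed by the ratio of the saline nerve signal to the mean cord signal, with muscle genes left out. Of 295 genes at least 4 times brighter in the nerve, 247 were lower in the acrylamide cord, 138 with separated arrays and 10 separated upward, and the median was -0.25. The median of these genes relative to saline replicate 2 was -0.11 on saline replicate 1, -0.16 on acrylamide replicate 1 and -0.44 on acrylamide replicate 2. Thus acrylamide replicate 1 lay close to saline replicate 1, and acrylamide replicate 2 lay furthest down. Of 5395 genes dimmer in the nerve than in the cord, 3281 were higher, with a median of 0.028. The same 295 genes had a median of 0.033 in the cerebellum. The amount of nerve root and covering on each cord sample was not measured, and its part in the collagen and Schwann cell values was not tested.

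**Figure D4:**
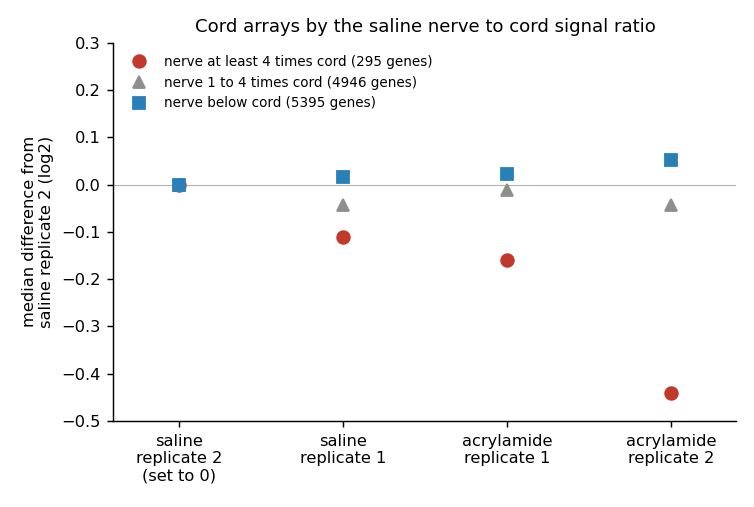
Median log2 difference of each cord array from saline replicate 2 (set to 0), for genes grouped by the ratio of their saline nerve signal to their mean cord signal. Genes at least 4 times brighter in the nerve (red circles, 295 genes) lie at -0.11, -0.16 and -0.44, and genes dimmer in the nerve (blue squares, 5395 genes) at 0.015, 0.023 and 0.052.

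Cartilage, bone and marrow genes varied between pools. Col2a1, the collagen of cartilage, was at 693 and 1254 in saline and 434 and 376 in acrylamide (-1.18 ± 0.29), and Cnmd, the cartilage protein chondromodulin, at 2500 and 3186 against 1573 and 1384 (-0.93 ± 0.24). Both were brighter in the saline nerve, at 4149 and 10525. Bglap, the bone protein osteocalcin, was at 511 and 561 against 121 and 2.83 (-3.44 ± 0.81) and was at 1.79 in the saline nerve. Over a list of 10 cartilage and bone genes drawn up after the values were seen, 8 were lower with a median of -0.34, and -0.54 without saline replicate 1. Bglap passed the signal filter only through its saline arrays.

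Another list drawn up after the values were seen held genes of granulocytes and red cell precursors, which are made in bone marrow. Its summed signal over the 20 genes on the array, tested or not, was 11693 and 21869 in saline. It was 13317 on acrylamide replicate 1 and 1827 on acrylamide replicate 2. Camp, an antimicrobial peptide of neutrophils, was at 341 and 623 against 295 and 4.1, and Prg2, an eosinophil granule protein, at 576 and 821 against 431 and 31.6. Mcpt8, a basophil protease, was at 113 and 275 against 52.8 and 1.44, and it passed the signal filter only through its saline arrays. S100a9, a calcium-binding protein of neutrophils, was at 3261 and 5950 against 3951 and 367. Acrylamide replicate 2 was nearly without these transcripts, and for S100a9 acrylamide replicate 1 lay inside the saline range. Mki67, a protein of dividing cells, followed the same arrays at 124 and 304 against 234 and 52. Among 21 cell cycle genes 15 were lower with a median of -0.11, which was -0.23 without saline replicate 1 and turned in sign without acrylamide replicate 2 and with a higher signal filter, and the part of marrow transcripts in that value was not tested.

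Leaving out saline replicate 1 brought forward genes on which the saline arrays disagreed. Without it, limma again called 0 probe sets. Caskin2, an adaptor protein with ankyrin repeats, had signals of 869 and 1634 in saline and 695 and 640 in acrylamide, with a difference of -0.82 ± 0.25 over all arrays and -1.27 without saline replicate 1. Aqp1, a water channel, was at 298 and 547 against 258 and 166, with -0.92 and -1.34, and Sostdc1, a secreted antagonist of bone morphogenetic proteins, at 1007 and 1421 against 881 and 665, with -0.63 and -0.88. Il16, a chemoattractant cytokine, was at 294 and 403 against 222 and 186, with -0.72 and -0.93. These 4 were lower on both acrylamide arrays in either case. On the higher side, St3gal4, a sialyltransferase, was at 505 and 401 against 620 and 636 (0.47 ± 0.15) and Dhx37, a helicase of ribosome assembly, at 245 and 171 against 285 and 262 (0.39 ± 0.17). Sf3a1, Atl3 and Angel2 had a low saline replicate 2 and a saline replicate 1 within or above the acrylamide range, such as Sf3a1 at 148 and 65.2 against 145 and 148, so their differences rest on that array.

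Single genes with wide differences were chosen after their values were seen. Pik3r1, the regulatory subunit of phosphoinositide 3-kinase, had the widest higher difference, at 118 and 330 in saline and 643 and 990 in acrylamide (1.92 ± 0.59), with replicates that also differed widely, and the difference was 1.23 without saline replicate 1. Grm8, a metabotropic glutamate receptor, was at 481 and 422 against 33 and 588, so a single acrylamide array was low. Its other probe set was at 136 and 133 against 89.9 and 99.3 (-0.45 ± 0.25). Without acrylamide replicate 2 this gene was the only probe set called (limma adjusted p = 0.00623), with the acrylamide arm then the low array alone, assumed to vary like the other groups. Over all 4 arrays its difference was -1.44 ± 0.86.

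The difference between tissues was tested for every probe set. The contrast of the acrylamide effect in the cord with that in the cerebellum gave 0 calls of 19062 by limma (a percent called of 0), with 393 (2.06%) at an unadjusted p below 0.05. The contrast with the sciatic nerve also gave 0 calls, with 524 (2.75%). Pmp2 was at -0.88 ± 0.16 in the cord, 0.29 ± 0.16 in the cerebellum, where it was dim at a saline mean of 9.94, and -0.10 ± 0.16 in the nerve, where it was bright at 15664. Nr1d1 was higher in each tissue, by 0.63 ± 0.14 in the cord, 0.44 ± 0.14 in the cerebellum and 1.78 ± 0.14 in the nerve. Syndig1l was at -0.79 ± 0.18, -0.90 ± 0.18 and 0.68 ± 0.18 in the same order. Macroh2a1, a histone variant of silent chromatin, was at -0.22 ± 0.083 in the cord, 0.41 ± 0.083 in the cerebellum and -0.38 ± 0.083 in the nerve. Nr4a3 was at -0.31 ± 0.32 in the cord and -2.42 ± 0.32 in the cerebellum, and Sptssb, a subunit of the enzyme that starts sphingolipid synthesis, at 0.21 ± 0.19 in the cord and -1.60 ± 0.19 in the nerve. The adjusted p of limma was 1 after rounding for all of these tissue differences. Of the 12 higher cord genes 12 were also higher in the cerebellum and 10 in the nerve, and of the 12 lower genes 8 were lower in each.

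**Figure D5:**
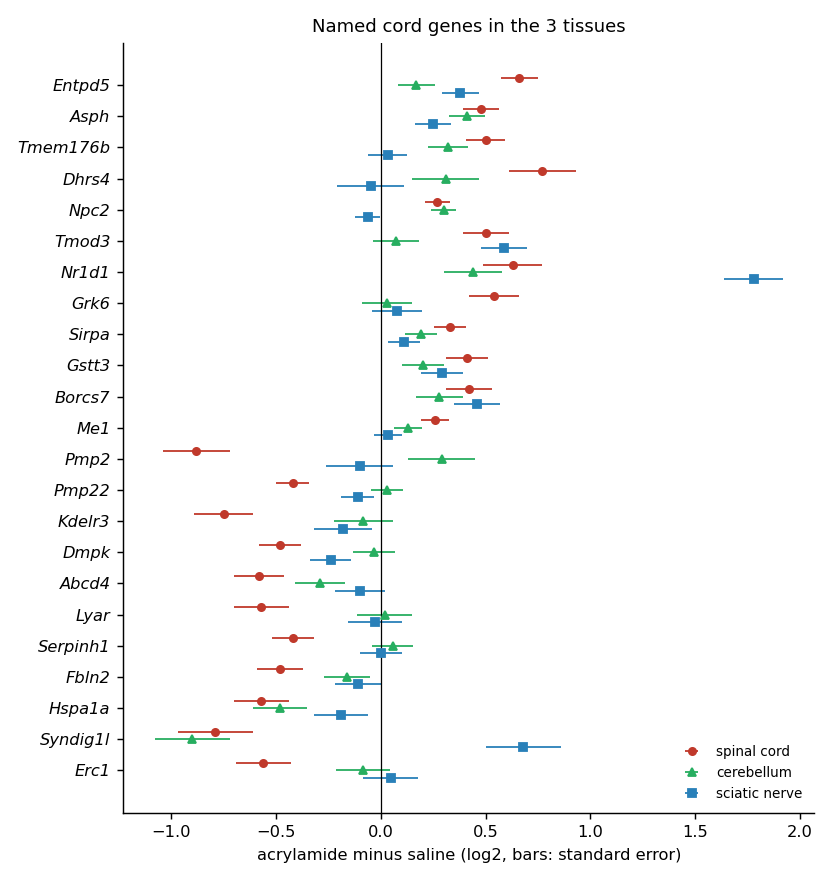
Log2 difference (acrylamide minus saline) with its standard error for the named cord genes in the spinal cord (red circles), cerebellum (green triangles) and sciatic nerve (blue squares); Bglap is left out because its cord value of -3.44 would stretch the axis. The upper genes lie right of 0 in the cerebellum too, and Nr1d1 reaches 1.78 in the nerve.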

How the data were processed

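Total RNA from spinal cord, cerebellum and sciatic nerve was labelled as biotin cRNA and hybridised to 1-colour Affymetrix rat arrays, per the labels. The deposited values are intensity signals on a linear scale, 1 per probe set, with GCOS 1.1 named in the submitters' processing notes. The background correction is not given in the sources used here, and each array had nearly the same trimmed mean, so arrays had been scaled as a whole. Of 31099 probe sets, 57 controls were left out, and 20826 had 1 gene symbol in the platform annotation. A gene without such a probe set was not analysed here.

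Signals were analysed as log2(signal + 16), which understates differences of dim genes. A linear model in limma 3.58.1 under R 4.3.3, moderated by eBayes with a trend on intensity, held a mean for each of 6 groups over 12 arrays and was tested on simulated data. P-values were two-sided, with Benjamini-Hochberg adjustment over 19062 probe sets. Groups and replicate numbers came from the labels.

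The comparison, the 44 gene lists and the rule for named genes were chosen with earlier results of these data known. Named genes were drawn from up to 12 in each direction with the smallest p and separated arrays, 4 members of a described list with the smallest p, the first 2 markers of a cell type list, 6 genes in each direction from the fit without saline replicate 1 and 3 for each tissue difference. The other genes with values, among them the neurofilaments, Mgst1, Nr1d2, Per3, Slc5a7, Pik3r1 and Grm8, were chosen after their values were seen. Lists were described by counts and medians, with the brightest probe set for each gene. Alternatives were other normalizations, pseudocounts, filters, model settings and sets of arrays, and a fit without the nerve arrays was added after seeing the data. Promoter motifs were searched on both strands in RefSeq GRCr8 sequences.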

Additional observations from a re-analysis of the deposited data

How the results depend on the processing

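Of 2030 values of named probe sets under alternatives, 18 were reversed, in 15 probe sets. With 1 probe set per gene, the leading probe sets of Grk6, Borcs7, Entpd5, Pmp22 and Erc1 gave way to brighter ones. There Grk6 was at -0.001, Borcs7 at 0.067, Entpd5 at 0.63, Pmp22 at -0.12 and Erc1 at -0.11. The number of probe sets called by limma was 0 except without acrylamide replicate 2, where 1 (Grm8) was called, so that count was 0 to 1 with an array left out. Unadjusted p below 0.05 was found for 552 probe sets, for 1053 with no filter, 1026 in the cord arrays alone, 343 with 1 probe set per gene, 1103 without the nerve arrays (chosen after seeing the data), and 350 to 629 with an array left out. The cause was not tested.

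With an array left out, list medians ranged from -4.02 to -0.086 for skeletal muscle, 0.14 to 0.26 for microglia, -0.021 to 0.051 for the axonal cytoskeleton, 0.052 to 0.17 for NRF2 and glutathione, 0.061 to 0.12 for lysosomes, -0.40 to -0.11 for collagen and matrix, 0.087 to 0.17 for interferon-induced genes and 0.31 to 0.44 for MHC class II. Reversals with an array left out were limited to differences near 0 or to arrays that disagreed: Sf3a1 (-0.007 to 1.01), Atl3 (-0.054 to 0.71), Per1 (-1.05 to 0.63), Myh1 (-0.32 to 0.056), Slc18a3 (-0.15 to 0.18), Ephx1 (-0.15 to 0.015), Ephx2 (-0.057 to 0.14), Nefl (-0.071 to 0.009), Nefm (-0.083 to 0.018), Kif5a (-0.014 to 0.046), Dync1h1 (-0.032 to 0.11), Mobp (-0.077 to 0.028), Slc17a6 (-0.038 to 0.066), Mki67 (-1.64 to 0.24) and Grm8 (-3.25 to 0.37). Beside the list medians whose turn in sign the results give, those of interneuron, heat shock and proteasome genes turned without acrylamide replicate 1, those of axonal cytoskeleton, axon injury, axon degeneration and peroxide genes without acrylamide replicate 2, and those of proteasome and fatty acid genes without saline replicate 2. Quantile normalization turned Nefm to 0.016 and Mobp to 0.013.

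The replicate numbers did not pair the arrays (correlation of same-numbered deviations -0.077), and the replicate block gave 0 calls and 627 probe sets at an unadjusted p below 0.05. With 2 pools in a group, differences near the median standard error of 0.16 were not detectable, and much larger ones were not called either. Entpd5, at 0.66 ± 0.088, had a limma adjusted p of 0.674. The lack of calls therefore does not show that such differences were absent.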
